A study of Mus musculus with 2 samples.

Results

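The mitogen-activated protein (MAP) kinase phosphatases are a family of dual-specificity phosphatases, and the 10 *Dusp* genes that encode them were followed in mouse lung cancer cells labeled as before and after *Runx3* restoration. The 10 genes, *Dusp1*, *Dusp2*, *Dusp4*, *Dusp5*, *Dusp6*, *Dusp7*, *Dusp8*, *Dusp9*, *Dusp10* and *Dusp16*, were taken by symbol from 23183 listed genes, and all 10 were found. The rule uses names and no measured value, although earlier results of these data were known when the family was chosen.

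MAP kinases are switched on when both a threonine and a tyrosine of their activation loop are phosphorylated, and these phosphatases switch them off by removing both phosphates. The nuclear enzymes are encoded by genes that growth factors and stress induce within minutes, the cytoplasmic enzymes Dusp6, Dusp7 and Dusp9 act mainly on ERK, and Dusp8, Dusp10 and Dusp16 act mainly on the stress kinases JNK and p38. Several of the genes are themselves targets of ERK signaling, so that the phosphatases form a negative feedback loop in cells with an activated Ras pathway.

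The KPR- cell line was immortalized from a lung cancer of a mouse that carried *K-Ras* LSL-G12D/+ and *Runx3* flox/FSF, 2 floxed *p53* alleles, the Tomato reporter and FlpERT2, in which nasal infection with Cre adenovirus (Ad-Cre) activated *K-Ras* and deleted *p53* and the floxed *Runx3* allele. 4-hydroxytamoxifen (4-OHT) activates the FlpERT2 recombinase, which removes the Frt-Stop-Frt cassette from the other *Runx3* allele and yields KPRrestored cells. Both groups thus share the oncogenic *K-Ras* allele, the loss of *p53* and a background of 10% serum, and both are derived from tumor cells of this single mouse model. Poly(A) RNA was sequenced as 1 library of KPR- cells (genotype RUNX3 -/- in the sample records, 0 h) and 1 library of KPRrestored cells (RUNX3 -/+, 16 h), and the records list 1 μM 4-OHT for both.

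With 1 library per group no difference has a replicate check, and the effects of *Runx3*, of 4-OHT and of hours in culture cannot be told apart. Levels are FPKM, in which fragment numbers are divided by the length of the transcript and by the depth of the library, so levels of different genes can be compared. A difference is log2(FPKM + 0.005) in KPRrestored minus KPR-, and a gene is called higher or lower past 0.5 either way. Genes are called expressed where the FPKM averaged over both libraries is 1 or more. The depth estimated from the steps of low FPKM values was 21.9 M fragments in the KPR- library and 22.5 M in the KPRrestored library. If the FPKM were also rescaled between the libraries, these are effective depths rather than fragment totals. The 95% intervals given with the values were computed from estimated fragments and cover counting error only. *Runx3* itself had 0.348 FPKM in KPR- and 0.349 FPKM in KPRrestored, about 28 and 29 fragments, a log2 difference of 0.0074 (interval -0.79 to 0.81). No increase of the restored gene was thus detectable at this depth, and from which allele the fragments came was not tested. KPR- and KPRrestored therefore stand for the libraries with these labels. The epithelial markers *Epcam*, *Cdh1*, *Krt8*, *Krt18* and *Krt19* summed to 4881 FPKM in KPR- and 4625 FPKM in KPRrestored, whereas the 7 alveolar type 2 markers summed to 0.494 and 0.380 FPKM, and the club cell markers *Scgb1a1* and *Scgb3a2* were listed at 0 in both. The summed levels in KPR- and KPRrestored were 12.7 and 5.33 FPKM for 6 fibroblast markers (mostly *Col1a1*), 5.77 and 8.01 FPKM for 5 leukocyte markers, and 1.16 and 2.22 FPKM for 4 endothelial markers (mostly *Kdr*). The leukocyte markers did not move together, as *Cd68* was higher in KPRrestored with 3.08 and 6.78 FPKM and *Csf1r* lower with 2.68 and 1.19 FPKM, whereas *Ptprc*, *Cd3e* and *Cd79a* were at or near 0. The part of such cells in the differences below was not tested.

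Most MAPK phosphatase transcripts were more abundant in the KPRrestored library, in which a change in the number of cells that express a gene and in the RNA per cell cannot be told apart. Of the 10 genes, 7 were higher by 0.5 or more on the log2 scale and 0 were lower by as much, whereas 12.1% of the 11231 expressed genes were higher and 9.29% were lower. All 10 members were expressed. At a difference of 1 or more, 5 members were higher (*Dusp1*, *Dusp8*, *Dusp16*, *Dusp4* and *Dusp10*) and 0 were lower, against 2.89% and 1.38% of the expressed genes. The median difference of the 10 genes was 1.04, beside 0.0086 for all expressed genes and 0.028 for the 6796 of these whose transcript length lies within the members' range of 1617 to 5104 bases.

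**Figure D1:**
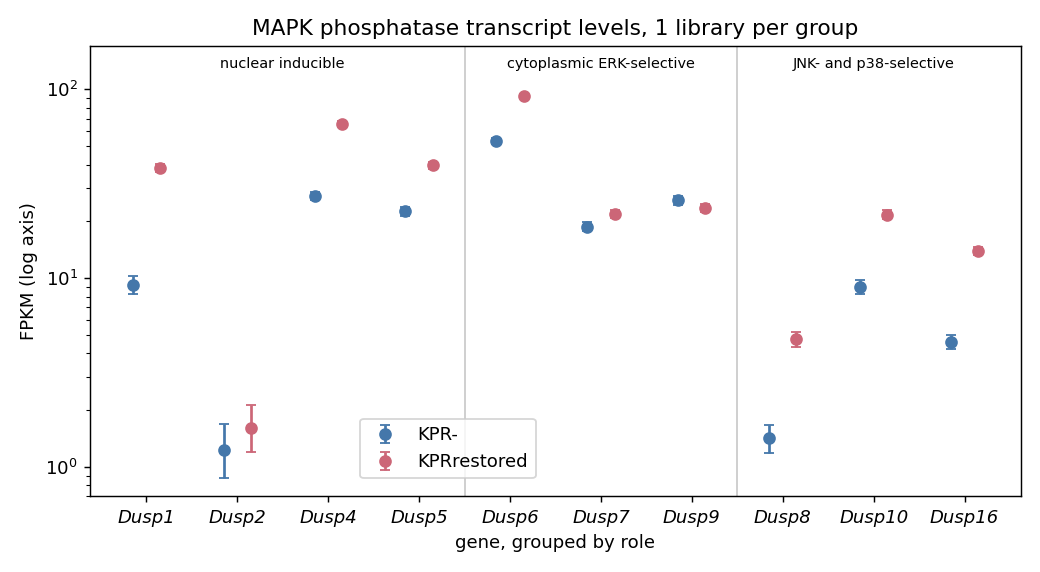
FPKM (log axis) of each MAPK phosphatase gene in the KPR- library (blue) and the KPRrestored library (red), grouped by role; bars are exact 95% Poisson counting intervals and there is 1 library per group. *Dusp1* lies at 9.23 and 38.4 FPKM, while *Dusp9* lies at 25.9 and 23.6 FPKM.

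*Dusp1* encodes the nuclear phosphatase of the early growth factor and stress response, which prefers p38 and JNK. It lies on chromosome 17 of GRCm38 from 26505590 to 26562128 (minus strand). Its level was 9.23 FPKM in KPR- and 38.4 FPKM in KPRrestored, from about 358 and 1533 fragments. The KPRrestored library was 4.16-fold higher, which is 2.06 on the log2 scale (interval 1.89 to 2.23). This was the largest difference in the family and ranked 52 of 11231 genes. The gene model overlaps *Ergic1* on the opposite strand, which had 90.8 FPKM in KPR- and 66.4 FPKM in KPRrestored, the other direction. Whether the libraries' strand was used for the FPKM is not given in the sources used here, so the contribution of *Ergic1* fragments to the *Dusp1* value was not tested. The model also overlaps *AC122252.4* and *AC122252.1* on the same strand and *Gm8225* on the opposite strand. None of these has a listed FPKM, and their part was not tested.

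*Dusp4* encodes a nuclear phosphatase of ERK and JNK that is commonly high in cells with active ERK signaling. It lies on chromosome 8 from 34807297 to 34819894 (plus strand). It had 27.2 FPKM in KPR- and 65.9 FPKM in KPRrestored, a log2 difference of 1.27 (interval 1.19 to 1.36). *Dusp5*, a nuclear phosphatase selective for ERK, lies on chromosome 19 from 53529109 to 53542431 (plus strand). Its 22.6 FPKM in KPR- stood against 39.7 FPKM in KPRrestored, a log2 difference of 0.81 (interval 0.71 to 0.92). The *Dusp5* model overlaps *AC137853.2* on the opposite strand, which has no listed FPKM and whose part was not tested. *Dusp2*, best known from activated lymphocytes, was the least abundant member in both libraries, although its interval overlapped with that of *Dusp8* in KPR-. It had 1.23 FPKM and 1.61 FPKM, about 38 and 51 fragments, and its difference of 0.39 had an interval of -0.25 to 1.03, so a change was not detectable at this depth.

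The promoters of *Dusp1* and *Dusp5* are shown because they hold the regulatory letters that the family's inducible genes are known for. The sequences are RefSeq promoters on GRCm38.p6, read 5′ to 3′ on the strand of the gene, and the capitals mark the cyclic AMP response element (CRE) core TGACG on either strand and, in *Dusp5*, a pair of adjoining CArG boxes, the motif bound by SRF. The *Dusp1* stretch is chr17:26508596-26508675 (minus strand, 203 to 124 bases before the RefSeq start) and the *Dusp5* stretch is chr19:53529051-53529106 (plus strand, 94 to 39 bases before the RefSeq start). Neither holds an exon of its own gene in GENCODE M21, and the *Dusp5* stretch lies in an exon of an antisense transcript. The *Dusp1* stretch lies inside the span of the longer gene model given above. The *Dusp5* stretch ends just before the start of its gene model, which lies upstream of the RefSeq start.
Dusp1: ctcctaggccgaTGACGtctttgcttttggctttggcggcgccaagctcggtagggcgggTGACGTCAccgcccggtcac
Dusp5: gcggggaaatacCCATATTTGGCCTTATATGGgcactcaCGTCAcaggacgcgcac

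Among the cytoplasmic phosphatases of ERK, the 3 genes differed from each other. *Dusp6*, the feedback phosphatase whose transcript follows ERK activity in many cells, lies on chromosome 10 from 99263231 to 99267489 on the plus strand. It was the most abundant member in both libraries, with 53.3 FPKM in KPR- and 92.4 FPKM in KPRrestored, a log2 difference of 0.79 (interval 0.73 to 0.86) from about 3010 and 5362 fragments. *Dusp7* (chromosome 9 from 106368632 to 106375724, plus strand) had 18.8 and 21.9 FPKM. Its difference of 0.22 stayed under the threshold, with an interval of 0.11 to 0.33, and with the shortest coding transcript of 658 bases the interval was -0.070 to 0.51 and held 0. *Dusp9*, on chromosome X from 73639419 to 73643514 (plus strand), was the one member with a negative difference. It had 25.9 FPKM in KPR- and 23.6 FPKM in KPRrestored, a log2 difference of -0.13 (interval -0.24 to -0.025), which is also under the threshold.

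All 3 genes of the JNK- and p38-selective phosphatases were higher in KPRrestored, by more than 1 on the log2 scale each. *Dusp8* lies on chromosome 7 from 142079490 to 142095843 (minus strand). It had 1.42 FPKM in KPR- and 4.74 FPKM in KPRrestored, from about 142 and 489 fragments. The difference was 1.74 (interval 1.47 to 2.02), at rank 87 of 11231. *Dusp16*, whose product is held mainly in the cytoplasm and prefers JNK, lies on chromosome 6 from 134715468 to 134792625 (minus strand). It had 4.61 FPKM in KPR- and 13.9 FPKM in KPRrestored, a log2 difference of 1.59 (interval 1.45 to 1.74) at rank 101. *Dusp10*, a phosphatase of JNK and p38 in nucleus and cytoplasm, lies on chromosome 1 from 184013302 to 184075636 (plus strand). It had 9.002 FPKM in KPR- and 21.7 FPKM in KPRrestored, a log2 difference of 1.27 (interval 1.12 to 1.42) at rank 185. Its gene model overlaps *1700056E22Rik* on the opposite strand, which had 2.29 and 3.06 FPKM, and whose part in the *Dusp10* value was not tested. The gene models of *Dusp8* and *Dusp16* overlap *Gm32786* and *Gm36328* on the opposite strand. Neither has a listed FPKM, and their part was not tested.

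The promoters of *Dusp8* and *Dusp16* are shown for comparison with that of *Dusp1*, with the CRE core in capitals and the same source and orientation. The *Dusp8* stretch is chr7:142095328-142095403 (minus strand, 119 to 44 bases before the RefSeq start) and lies in an intron of a longer *Dusp8* transcript of GENCODE M21. The *Dusp16* stretch is chr6:134792682-134792710 (minus strand, 82 to 54 bases before the start).
Dusp8: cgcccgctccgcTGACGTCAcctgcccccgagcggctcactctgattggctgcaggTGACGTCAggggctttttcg
Dusp16: attggtttcaagTGACGccatctctttat

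**Figure D2:**
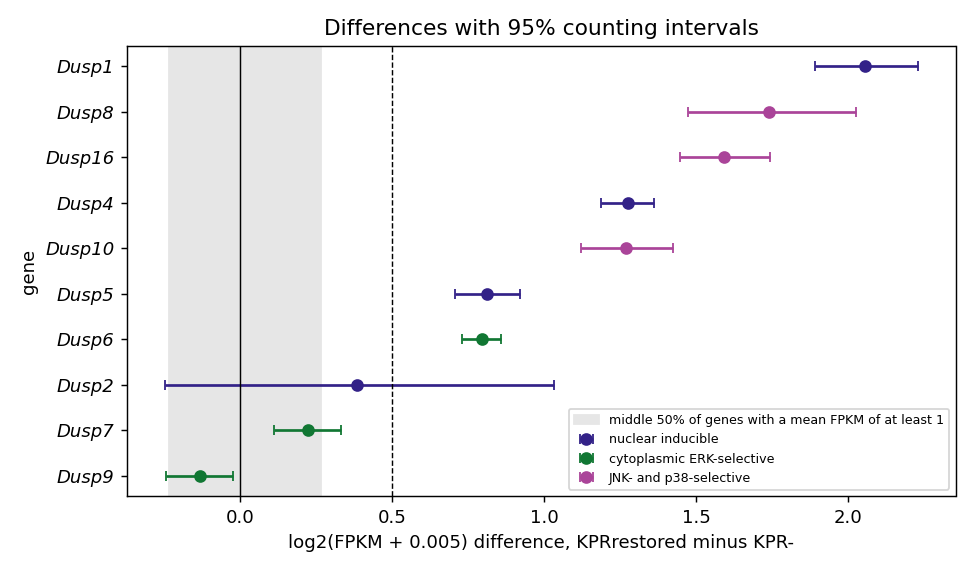
Log2(FPKM + 0.005) difference, KPRrestored minus KPR-, of each MAPK phosphatase gene with its exact 95% counting interval, colored by role; the dashed line is the threshold of 0.5 and the gray band spans the quartiles of the 11231 expressed genes. The 7 genes from *Dusp1* (2.06) to *Dusp6* (0.79) lie past the threshold, and the 3 JNK- and p38-selective genes lie between 1.27 and 1.74.

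Ordered by difference, *Dusp1*, *Dusp8* and *Dusp16* led, and each interval overlapped with that of its neighbor in this order. *Dusp4* and *Dusp10* followed at 1.27 each, with the interval of *Dusp4* apart from that of *Dusp16*. *Dusp5* and *Dusp6* came next at 0.81 and 0.79 with overlapping intervals, both apart from *Dusp10*. The wide interval of *Dusp2* overlapped with those of *Dusp5*, *Dusp6*, *Dusp7* and *Dusp9*. The interval of *Dusp9* lay apart from that of *Dusp7*, but overlapped with it when the shortest coding transcript was used.

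**Figure D3:**
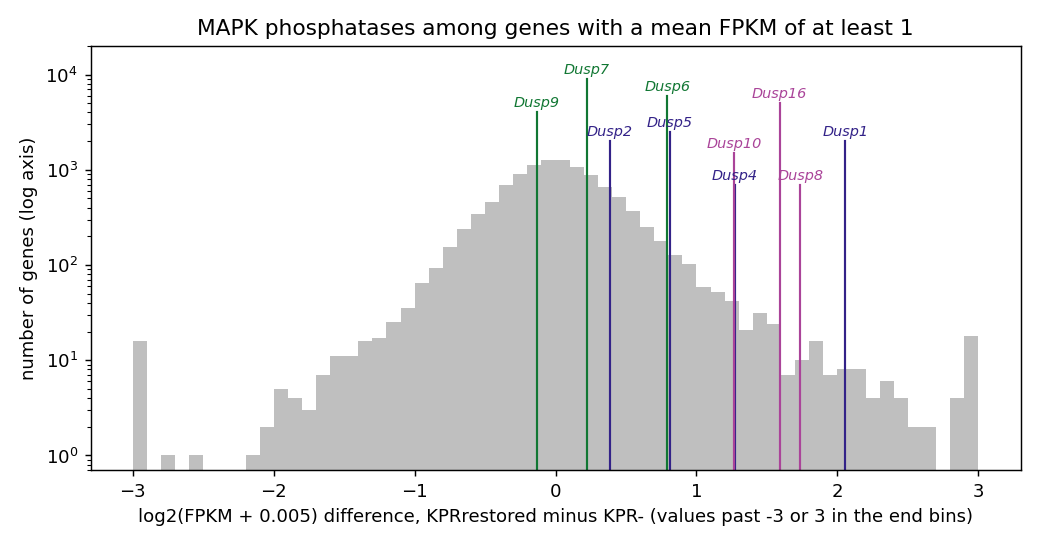
Histogram of the log2(FPKM + 0.005) differences (KPRrestored minus KPR-) of the 11231 expressed genes, in bins of 0.1 with a log axis for the number of genes; vertical lines mark the MAPK phosphatase genes, colored by role, and their height only separates the names. *Dusp1* lies at percentile 99.5 and *Dusp9* at percentile 34.2 of the distribution.

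The order of the levels also shifted between the libraries. In KPR-, *Dusp6* was followed by *Dusp4* and *Dusp9*, whose counting intervals overlapped, then by *Dusp5* and *Dusp7*. *Dusp1* and *Dusp10* came next with 9.23 and 9.002 FPKM and overlapping intervals, and *Dusp16*, *Dusp8* and *Dusp2* were lowest. In KPRrestored, *Dusp6* and *Dusp4* still led, but *Dusp5* and *Dusp1* stood side by side at 39.7 and 38.4 FPKM with overlapping intervals, above *Dusp9*, *Dusp7* and *Dusp10* at 23.6, 21.9 and 21.7 FPKM, whose neighboring intervals overlapped as well. *Dusp1* thus moved from 5.32% to 11.9% of the summed FPKM of the family, *Dusp9* from 14.9% to 7.28%, and *Dusp6* stayed near its share with 30.8% and 28.5%.

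Summed by role, the 4 nuclear inducible genes had 60.3 FPKM in KPR- and 146 FPKM in KPRrestored, a log2 ratio of 1.27 (95% counting interval 1.21 to 1.33). The 3 cytoplasmic ERK-selective genes had 97.9 and 138 FPKM, a log2 ratio of 0.49 (interval 0.44 to 0.54), and the 3 JNK- and p38-selective genes had 15.03 and 40.3 FPKM, a log2 ratio of 1.42 (interval 1.32 to 1.53). The interval of the cytoplasmic sum lay apart from those of both other sums. In KPR- the cytoplasmic ERK-selective genes made up 56.5% of the family's summed 173 FPKM, whereas in KPRrestored they made up 42.6% of 324 FPKM, below the 45.0% of the nuclear inducible genes.

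**Figure D4:**
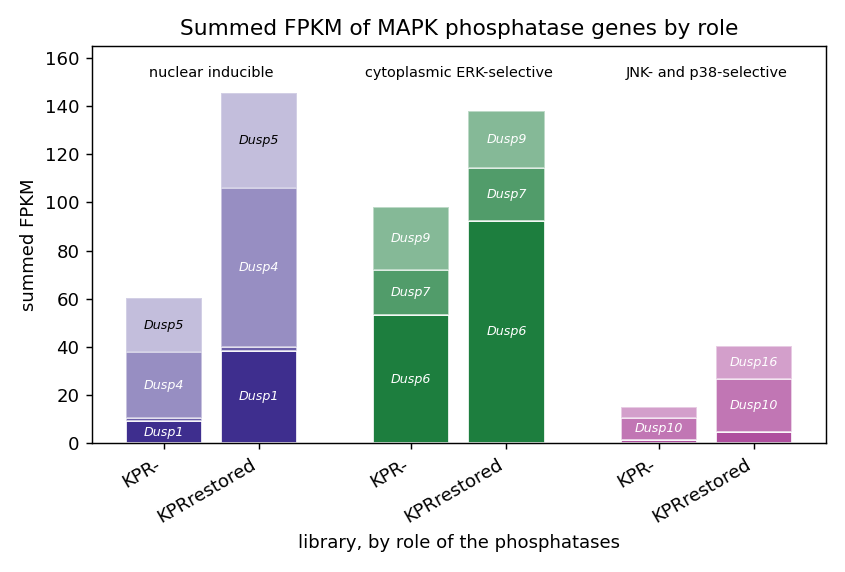
Summed FPKM (axis from 0) of the MAPK phosphatase genes by role in the KPR- and KPRrestored libraries, with each gene as a segment; the unlabeled thin segments are *Dusp2*, *Dusp8* and, in KPR-, *Dusp16*. The nuclear inducible sum is 60.3 and 146 FPKM and the cytoplasmic ERK-selective sum 97.9 and 138 FPKM.

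Of 8 MAP kinase genes examined, which comprise the JNK and p38 kinase genes and only *Mapk3* of the ERK group, 7 were expressed, and 0 of these were higher or lower by 0.5 or more, with differences from -0.26 (*Mapk14*, p38 alpha) to 0.37 (*Mapk11*, p38 beta) and a median of 0.077. The 7 JNK and p38 kinase genes summed to 91.3 and 94.6 FPKM, and the JNK- and p38-selective phosphatases had 0.165 and 0.426 FPKM per FPKM of them. The ratios leave out *Dusp1* and *Dusp4*, whose products also act on JNK or p38. They are ratios of transcripts, and protein levels and kinase phosphorylation were not measured in these libraries.

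Upstream of the MAP kinases, 0 of 7 MAP2K genes passed the threshold in either direction (median 0.046). The counts in this and all other lists stand beside 12.1% of the expressed genes higher and 9.29% lower. Of 14 expressed MAP3K genes, 1 was higher, *Map3k6* with 3.76 FPKM in KPR- and 6.68 FPKM in KPRrestored, and 1 was lower, *Map3k4* with 9.07 and 5.41 FPKM (median of the list -0.072). Of 8 expressed scaffold genes, 0 were higher and 2 were lower: *Ksr1*, a scaffold of Raf, MEK and ERK, with 5.502 and 3.03 FPKM, and *Arrb1*, a beta-arrestin, with 5.79 and 3.42 FPKM. Their median was nevertheless 0.23.

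Downstream, 2 of 9 expressed MAP kinase-activated kinase genes were higher and 0 were lower, with a median of -0.0057. *Rps6ka2*, an RSK kinase activated by ERK, had 6.26 FPKM in KPR- and 12.6 FPKM in KPRrestored, and *Mapkapk5* had 17.3 and 25.3 FPKM. The 8 ERK output genes, the non-*Dusp* members of a commonly used score of ERK pathway activity, went both ways, with a median of 0.18 that turned to -0.032 over the genes that averaged 5 FPKM or more, which leaves out *Spry4*. *Phlda1* was higher, with 57.2 FPKM in KPR- and 105 FPKM in KPRrestored, as was *Spry4*, a feedback inhibitor of receptor signaling, with 2.01 and 3.41 FPKM. *Ccnd1*, which encodes cyclin D1, was lower, with 331 FPKM in KPR- and 203 FPKM in KPRrestored. The other 5, *Spry2*, *Epha2*, *Epha4*, *Etv4* and *Etv5*, stayed within the threshold.

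The lists of other phosphatases had smaller medians than the 10 members. Of the 16 atypical dual-specificity phosphatase genes, which lack the kinase-binding domain of the MAPK phosphatases (apart from the related pseudophosphatase gene *Styxl1*, listed at 0 in both libraries), 10 were expressed. Of these, 1 was higher, *Dusp3* with 10.2 FPKM in KPR- and 15.02 FPKM in KPRrestored, and 0 were lower, with a median of 0.15. Of 6 expressed genes of other phosphatases that act on MAP kinases, 0 passed the threshold, although all 6 differences were above 0, from 0.16 to 0.37.

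**Figure D5:**
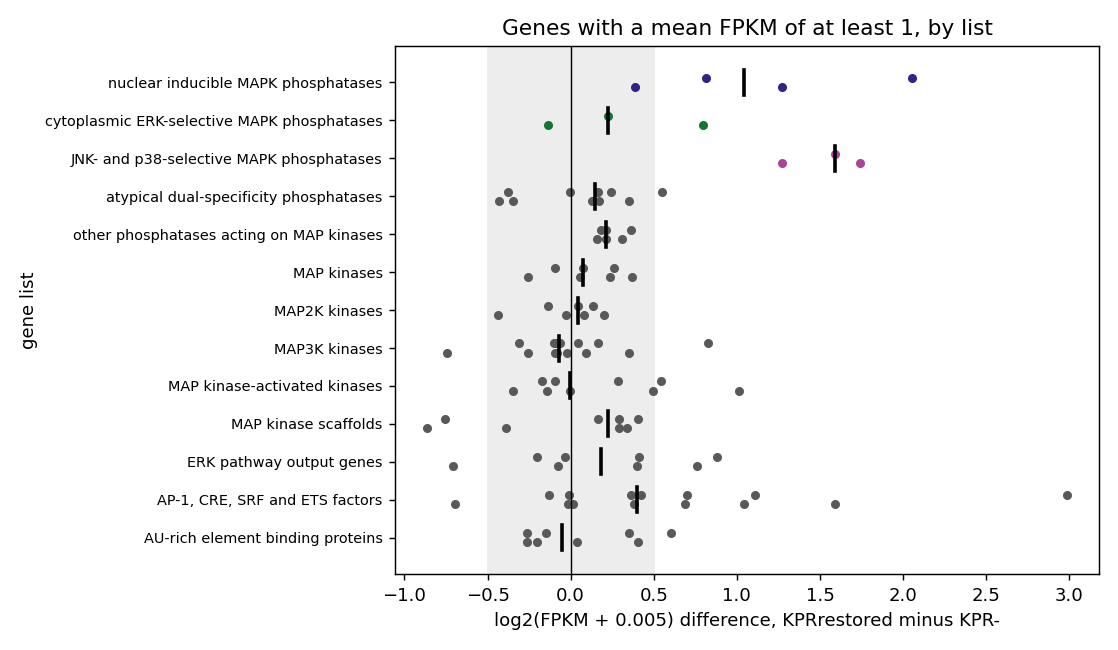
Log2(FPKM + 0.005) difference, KPRrestored minus KPR-, of each expressed gene (dots, shifted up or down only to separate them), by gene list; black bars are list medians and the gray band is the range within the threshold of 0.5. The median is 1.59 for the JNK- and p38-selective phosphatases and 0.077 for the MAP kinases.

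Of 14 expressed transcription factor genes of the AP-1, CRE, SRF and ETS families, 6 were higher and 1 was lower, with a median of 0.40. *Atf3*, a stress-induced factor that binds CRE and AP-1 sites, had 2.69 FPKM in KPR- and 21.3 FPKM in KPRrestored, and *Jun*, a substrate of JNK, had 13.6 and 29.3 FPKM. *Elk4*, a partner of SRF, was lower, with 6.75 and 4.17 FPKM, and *Srf* itself had a difference of -0.01.

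RefSeq promoters were matched for 8 of the 10 phosphatase genes, all but *Dusp4* and *Dusp9*, and the 250 bases before each start were searched on both strands. The full CRE, TGACGTCA, was found in the promoters of *Dusp1*, once, and *Dusp8*, at 2 positions. Of the promoters of expressed genes, 2.67% hold it. The differences of *Dusp1* and *Dusp8* were 2.06 and 1.74. The interval of *Dusp8* overlapped with that of *Dusp16* (1.59), whose window holds no full CRE. With a pseudocount of 1, *Dusp16* (1.41) came before *Dusp8* (1.25). Whether the motif goes with the size of the difference was not tested. The core TGACG, which each full CRE also contains on both strands, was found in 4 of the 8 promoters (*Dusp1*, *Dusp5*, *Dusp8* and *Dusp16*). It was found in 27.3% of those of expressed genes. The windows of *Dusp2*, *Dusp6*, *Dusp7* and *Dusp10* had none. CArG boxes were found in *Dusp5* alone among the 8, at 2 adjoining positions, and in 1.12% of the promoters of expressed genes. The AP-1 motif TGANTCA and the RUNX motif TGTGGT were found in 0 of the 8 windows, against 4.53% and 10.5% of the promoters of expressed genes, as were the C/EBP-ATF motif TGATGNAAT, against 0.392%, and the TATA box TATAAA, against 6.03%. The E-box CACGTG was found in 2 of the 8 (*Dusp1* and *Dusp2*), against 8.52%, and CCAAT in 5 of the 8 (*Dusp6*, *Dusp7*, *Dusp8*, *Dusp10* and *Dusp16*), against 35.6%. The median GC content was 68.4% for the 8 windows and 52.4% for all 32851 promoters, expressed or not. It was not computed for the promoters of expressed genes alone, and its part in the motif counts was not tested. Letters outside these 250 bases were not searched, and a match is not evidence of binding.

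AU-rich elements, which mark short-lived messages, were counted in the 3′ UTRs of the 10 genes. The pentamer ATTTA occurred 5.80 times per kb in *Dusp1* (4 in 690 bases) and 6.88 times in *Dusp2* (4 in 581 bases), beside a median of 1.31 over 10458 expressed genes. The density was 2.70 in *Dusp10*, 2.11 in *Dusp8*, 1.80 in *Dusp4* and 1.24 in *Dusp16*, from 0.841 to 0.905 in *Dusp5*, *Dusp6* and *Dusp9*, and 0 in *Dusp7*. In all, 5 of the 10 members lay above the median, and the members' own median was 1.52. The nonamer TTATTTATT, the core of the strongest such elements, was found in 2 of the 10 members, *Dusp1* and *Dusp8*, and in 7.82% of these genes. The sites are shown with the nonamer in capitals, in GENCODE M21 transcripts on GRCm38 (minus strand of each): chr17:26506159-26506187 and chr17:26505870-26505898 in *Dusp1*, and chr7:142081715-142081743 in *Dusp8*.
Dusp1, first site: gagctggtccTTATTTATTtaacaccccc
Dusp1, second site: gtttttacctTTATTTATTtttgtgtagg
Dusp8: tttcgattttTTATTTATTtaagctagtg

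Among 8 genes of proteins that bind such elements, 1 was higher and 0 were lower, with a median of -0.053. This share of 12.5% higher is near the 12.1% of all expressed genes. *Zfp36*, which encodes tristetraprolin, a factor that shortens the life of AU-rich messages, had 7.34 FPKM in KPR- and 11.1 FPKM in KPRrestored, a log2 difference of 0.60. *Elavl1*, whose product stabilizes such messages, had a difference of 0.04. The stability of the *Dusp* messages was not measured.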

How the data were processed

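mRNA sequencing data of 1 KPR- and 1 KPRrestored library were used. The authors selected poly(A) RNA, prepared directional libraries, removed adapters and low-quality bases, aligned the read pairs to mm10 with TopHat (both named in the submitters' processing notes) and deposited FPKM values estimated using Cufflinks, 1 per gene symbol and library. The paper also names a geometric normalization with EdgeR, and whether the deposited FPKM include it is not given. Versions and the annotation are not given in the sources used here.

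The deposited FPKM were put on the scale log2(FPKM + 0.005), with a threshold of 0.5 for differences. The added 0.005 weighs only on genes at or near 0 FPKM, and the differences of expressed genes ran from -20.2 to 18.4. The lowest value of a member was 1.23 FPKM (*Dusp2* in KPR-). Of 23183 symbols, 22148 matched GENCODE M21 (GRCm38). Depth and a mean fragment length of 212 bases were fitted to the steps of low FPKM values in 4325 genes of a single transcript. Of the values worth 0.5 to 5.5 fragments, 80.3% in KPR- and 81.7% in KPRrestored were less than 0.1 away from a whole number, against 20% for evenly spread values. The fit sought whole numbers in these same genes, so the 20% is a reference without fitting. Fragments per gene were estimated with the longest transcript that has a RefSeq counterpart. Intervals of differences are exact 95% Clopper-Pearson limits, those of levels exact Poisson limits and those of sums from a normal approximation. The depth fit and the intervals were tested on simulated data. No test between conditions was made, since each group has 1 library.

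The members and the 10 pathway lists were chosen with earlier results of these data known. The genes named with values are the members, *Runx3* and, in each pathway list, up to 2 higher and 2 lower genes with the largest change of log2(FPKM + 1) among expressed genes (mean FPKM of 1 or more) past the threshold. One gene of the MAP kinase list is not reported here. *Mapk3*, *Mapk11*, *Mapk14*, *Srf*, *Elavl1*, *Ergic1*, *1700056E22Rik* and the marker genes given with values were named after their values were seen. Alternatives were other pseudocounts, scalings, filters on mean FPKM, a threshold of 1 and, for the intervals, the shortest coding transcript (350 bases or more). The analysis ran in Python 3.11.15 with pandas 2.3.3, matplotlib 3.10.9, numpy 2.4.6 and scipy 1.17.1.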

Additional observations from a re-analysis of the deposited data

How the results depend on the processing

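No paired analysis was possible because each group has 1 library, and for the same reason no library could be left out. With pseudocounts of 0.1 and 1, scaling to the same FPKM total or upper quartile, and centring on the median gene, the count of members higher by 0.5 or more was 7 each time and the count of lower members 0. The count was 6 over members that averaged 5 FPKM or more and 5 with a threshold of 1. In all, 129 alternative values of 36 results were computed, and 2 had the other sign, the counting limit of *Dusp7* and the median of the ERK output genes. A pseudocount of 1 moved the difference of *Dusp8* to 1.25 and that of *Dusp16* to 1.41, as it shrinks the differences of low genes by construction. With the shortest coding transcript, which leaves fewer estimated fragments, the lower counting limit of *Dusp7* was -0.070. Over ERK output genes that averaged 5 FPKM or more, which leaves out *Spry4*, the list's median was -0.032. The scaling alternatives shifted the median gene by at most 0.022 on the log2 scale. Depth limits *Dusp2* most, with about 38 and 51 fragments.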
